A study of Arabidopsis thaliana with 28 samples.

Results

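The leaf senescence genes described here are 10 Arabidopsis thaliana loci, chosen by name as regulators and markers of leaf ageing because the histone deacetylase HDA9 is known to act in that process. They were NAP (AT1G69490), ORE1 (AT5G39610), ORS1 (AT3G29035), WRKY53 (AT4G23810), WRKY6 (AT1G62300), SAG12 (AT5G45890), SAG13 (AT2G29350), SAG29 (AT5G13170), SGR1 (AT4G22920) and PPH (AT5G13800). All 10 stood among the 36632 loci of both deposited count tables, and 9 had enough reads to be tested in either table. SAG12 did not, and its counts are given without a test in the main edgeR fit. No measured value of this series entered the choice rule, but the members were chosen with earlier results of these data known.

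The study sequenced RNA from seedlings in 28 libraries. The seedlings were harvested 12 days after germination and grew at 21 °C in a long-day photoperiod, their seeds having been kept at 4 °C for 4 days. On soil grew the mutants hda9-1 (SALK_007123), hda9-1 h2a.z-5, h2a.z-5, hda6-1 (SALK_201895C) and hda6-1 h2a.z-5 and the wild type Col-0 (Columbia-0), with 3 libraries each. The h2a.z-5 line is a triple mutant of the histone variant H2A.Z, with a frameshift in HTA8 and the insertions SALK_054814 and SALK_017235. Col-0 seedlings in MS medium with 1% sucrose made up the TSA and Mock groups, with 5 libraries each; the dose and duration of TSA are not given in the labels. TSA, trichostatin A, inhibits many histone deacetylases at once, so it is not specific to HDA9 or HDA6.

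Leaf senescence is the ordered ending of a leaf's life, in which chlorophyll and proteins are broken down and their nitrogen and sugars are exported to growing organs and seeds. It is driven by transcription factors of the NAC and WRKY families, to which NAP, ORE1, ORS1, WRKY53 and WRKY6 belong, and it is hastened by ethylene, abscisic acid, jasmonate and salicylic acid. Downstream genes include SAG12, which encodes a cysteine protease and is a late marker, SAG13, an early marker that encodes a short-chain dehydrogenase, and SAG29, which encodes the sugar transporter SWEET15. SGR1 removes magnesium from chlorophyll and PPH, pheophytinase, then removes the phytol tail. HDA9 takes acetyl groups off histones and works in leaf ageing with the protein POWERDRESS and with WRKY53. Seedlings of this age are far from senescence of the whole plant, and in a whole seedling a change in a few ageing cotyledon cells cannot be told apart from a change in every cell.

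The genotype libraries held 32795474 to 39633678 counts over genes, and the TSA and Mock libraries held 30257874 to 40395659. Expression is given as CPM, the count scaled to the TMM-adjusted size of its library, and differences as log2 fold changes from edgeR with their standard errors. The targeted genes bore out the labels hda9-1 and h2a.z-5: the mean of HDA9 was 1.62 CPM in hda9-1 libraries, 1.01 CPM in hda9-1 h2a.z-5 libraries and 13.9 CPM in Col-0, and HTA11 averaged 1.64 CPM in h2a.z-5, against 61.4 CPM in Col-0. HDA6 did not bear out its label, with 128.5 CPM in the libraries labelled hda6-1 and 16.9 CPM in those labelled hda6-1 h2a.z-5, against 16.7 CPM in Col-0. The 6 root markers summed to between 0.217 and 1.77 CPM in the soil-grown libraries, with 1 to 3 of the 6 at 0 in each group. In medium they summed to 5.58 to 84.8 CPM, with the highest sum in TSA replicate 5. The seedlings on soil are therefore described as labelled, but with root transcripts near 0. Replicate 5 stood apart in medium: 8 clock genes summed to 204 CPM in its TSA library, against 388 to 598 CPM in the other TSA libraries, and to 209 CPM in its Mock library, against 1056 to 1239 CPM in the other Mock libraries. Its 7 leaf photosynthesis markers summed to 23940 CPM (TSA) and 14140 CPM (Mock), against 37360 to 73960 CPM in the remaining medium libraries. In the soil-grown set, 6 jasmonate output genes of Col-0 replicate 3 summed to 3587 CPM, against 493 and 630 CPM in Col-0 replicates 1 and 2.

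The promoters of NAP, ORE1, ORS1, SAG13 and SAG29 are shown first, a choice not made by a ranking of the members. Each window is 300 bases long, from 250 before to 50 after the annotated start in RefSeq's TAIR10.1 annotation, written in the direction of the gene. Capitals mark the W-box, the WRKY-binding letters TTGACC or TTGACT, and the G-box CACGTG, bound by bZIP and bHLH factors, each searched on both strands; the window also was searched for CATGTG, a NAC-binding core.
NAP, chr1:26121830-26122129, plus strand: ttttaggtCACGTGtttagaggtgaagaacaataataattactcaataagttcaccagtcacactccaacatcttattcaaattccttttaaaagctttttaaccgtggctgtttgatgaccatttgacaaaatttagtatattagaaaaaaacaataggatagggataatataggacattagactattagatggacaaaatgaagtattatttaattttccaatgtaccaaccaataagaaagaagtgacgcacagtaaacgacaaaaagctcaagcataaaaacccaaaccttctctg
ORE1, chr5:15859862-15860161, minus strand: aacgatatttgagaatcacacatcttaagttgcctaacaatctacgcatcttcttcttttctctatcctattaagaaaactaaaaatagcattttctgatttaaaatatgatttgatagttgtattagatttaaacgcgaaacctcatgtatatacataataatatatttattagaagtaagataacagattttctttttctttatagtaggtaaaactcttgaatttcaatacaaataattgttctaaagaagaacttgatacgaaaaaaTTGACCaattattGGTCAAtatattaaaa
ORS1, chr3:11033415-11033714, plus strand: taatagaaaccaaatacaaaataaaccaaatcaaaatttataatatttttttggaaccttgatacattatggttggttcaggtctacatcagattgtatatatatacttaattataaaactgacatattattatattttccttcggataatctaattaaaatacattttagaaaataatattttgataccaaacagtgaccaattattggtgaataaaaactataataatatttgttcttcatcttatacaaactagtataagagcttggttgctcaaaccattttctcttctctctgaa
SAG13, chr2:12600664-12600963, plus strand: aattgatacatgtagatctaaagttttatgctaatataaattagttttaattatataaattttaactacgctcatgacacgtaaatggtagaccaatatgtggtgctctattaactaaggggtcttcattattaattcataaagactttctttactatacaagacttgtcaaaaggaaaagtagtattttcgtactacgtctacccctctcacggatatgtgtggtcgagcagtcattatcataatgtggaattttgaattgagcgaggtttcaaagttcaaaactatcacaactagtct
SAG29, chr5:4183305-4183604, minus strand: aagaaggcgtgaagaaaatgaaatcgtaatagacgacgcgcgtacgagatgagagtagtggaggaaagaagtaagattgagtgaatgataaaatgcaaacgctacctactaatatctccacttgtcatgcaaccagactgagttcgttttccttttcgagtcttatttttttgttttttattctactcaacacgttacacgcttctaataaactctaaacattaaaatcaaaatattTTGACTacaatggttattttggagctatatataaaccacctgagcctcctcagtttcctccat
The NAP window held a G-box that starts at base -242, the ORE1 window a W-box at base 22 and another on the opposite strand at base 35, and the SAG29 window a W-box at base -13. The ORS1 and SAG13 windows held none of the letters searched. Of the windows not shown, that of WRKY53 held a W-box at base -219 and another on the opposite strand at base -71. Those of SAG12 and PPH held CATGTG at bases -50 and -6. Over all 10 members, 3 windows held a W-box, against 32.4% of 27443 promoters, 1 held a G-box, against 7.68%, and 2 held CATGTG, against 12.9%. These matches describe the letters only, and the windows of the 2 genes that were higher under TSA did not share one of these motifs.

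Before any fold change, the levels of the members differed widely. In Col-0 on soil the mean level per kilobase of exon, in CPM per kb, was highest for SAG13 (19.0), PPH (13.5) and SGR1 (10.4), followed by SAG29 (4.07), WRKY6 (2.96), WRKY53 (1.60), NAP (1.19), ORE1 (0.661), ORS1 (0.174) and SAG12 (0.0129). SAG13 does not differ from PPH or SGR1 beyond its spread there, since its 3 Col-0 libraries lay between 2.89 and 65.5 CPM. Both chlorophyll breakdown genes were among the highest 3, and the late marker SAG12 was near 0. In TSA the order was SAG13 (692 CPM per kb), PPH (37.1), SAG29 (29.7), ORE1 (24.6), WRKY6 (19.0), NAP (14.0), SGR1 (11.6), WRKY53 (3.54), ORS1 (1.26) and SAG12 (0.332). In Mock it was PPH (33.5), SGR1 (15.8), ORE1 (11.7), SAG13 (11.1), WRKY6 (10.9), NAP (10.6), ORS1 (4.94), SAG29 (2.57), WRKY53 (1.7) and SAG12 (0). The Mock values from ORE1 to NAP lay within one another's spread. The soil and medium tables were fitted separately, so levels are not tested across them.

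In hda9-1, the regulator NAP rose, and no other member passed the edgeR test. NAP had 11.9, 8.20 and 5.96 CPM in hda9-1, against 1.76, 0.754 and 1.97 CPM in Col-0. Every hda9-1 library was above every Col-0 library, and the log2 fold change was 2.52 ± 0.48 (SE; edgeR quasi-likelihood test, adjusted p = 0.0183, n = 3 each). NAP was the only member called of the 9 tested, where 1.75% of all genes tested were called. All 9 had a positive log2 fold change, with a median of 1.06, against -0.00182 over all genes tested. Leaving out 1 library at a time, the log2 fold change of NAP lay between 2.20 and 2.75, and the call was lost in 4 of 6 cases. The adjusted p became 0.0644 when replicate 1 of Col-0 was omitted, 0.0892 when its replicate 2 was, 0.0572 when replicate 1 of hda9-1 was and 0.055 when its replicate 2 was.

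The other regulators lay higher in hda9-1 by less. ORE1, a NAC factor that promotes age-dependent cell death, had 1.60, 3.79 and 1.90 CPM in hda9-1, against 0.495, 0.817 and 1.29 CPM in Col-0. WRKY53, an early switch of leaf ageing, had 7.79, 6.70 and 5.37 CPM in hda9-1, against 2.15, 2.45 and 2.65 CPM in Col-0. For both genes the groups did not overlap, yet neither passed the test, with log2 fold changes of 1.48 ± 0.60 (adjusted p = 0.215) and 1.45 ± 0.61 (adjusted p = 0.236, edgeR). With NAP and SAG13 these made 4 members above Col-0 without overlap, as were 11.9% of all genes. In the authors' deposited table NAP (adjusted p = 7.22e-09), ORE1 (0.0297) and WRKY53 (1.88e-06) were called, where 6% of its genes were. When only hda9-1 and Col-0 were fitted with edgeR, WRKY53 passed as well (adjusted p = 0.0448). ORS1, the closest relative of ORE1, had 0.353, 0.774 and 0.285 CPM in hda9-1, against 0.173, 0.220 and 0.354 CPM in Col-0, and WRKY6, a factor of senescence and defence, had 7.11, 10.5 and 10.3 CPM, against 7.68, 6.07 and 6.83 CPM. Both overlapped between the genotypes. The annotated span of WRKY53 overlaps AT4G23800 on the opposite strand, and since the strand used in counting is not given, reads of the pair cannot be told apart.

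Among the downstream genes, SAG13 was at a similar high level in every hda9-1 library and varied in Col-0. It had 119, 103 and 99.1 CPM in hda9-1, against 9.53, 2.89 and 65.5 CPM in Col-0, and its log2 fold change of 2.04 ± 1.2 did not pass (adjusted p = 0.409). The high Col-0 library is replicate 3, which also had the highest Col-0 sums of the jasmonate output genes (3587 CPM) and the salicylic acid output genes (221.5 CPM). SAG29 had 21.7, 8.14 and 4.61 CPM in hda9-1, against 9.19, 4.65 and 2.65 CPM in Col-0, with 1.06 ± 0.55 on the log2 scale (adjusted p = 0.339) and overlapping groups. SAG12 was counted in 2 of 3 hda9-1 libraries, with 36 reads in all (0, 0.400 and 0.499 CPM), against 2 reads in 1 Col-0 library. It had 0 reads in the other mutants, where 3 reads over the group would correspond to 0.0241 to 0.0272 CPM.

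Neither chlorophyll breakdown member passed the unblocked test in hda9-1. PPH had 53.3, 36.2 and 62.1 CPM in hda9-1, against 27.9, 22.7 and 42.1 CPM in Col-0, and SGR1 had 21.0, 18.4 and 21.3 CPM, against 17.0, 18.2 and 19.9 CPM. Within each replicate number, hda9-1 was above Col-0 for both genes. Their log2 fold changes were 0.71 ± 0.27 (adjusted p = 0.188) and 0.14 ± 0.18 (adjusted p = 0.752, edgeR). Libraries with the same number deviated together, and with replicate number as a block 4 members passed in hda9-1, where 16.3% of all genes did. These were NAP (2.56, adjusted p = 0.0024), ORE1 (1.57, adjusted p = 0.0342), SAG13 (3.30, adjusted p = 0.0115) and PPH (0.72, adjusted p = 0.000732). Without replicate 3 of every genotype none passed, NAP having a log2 fold change of 2.98 and an adjusted p of 0.0845.

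**Figure D1:**
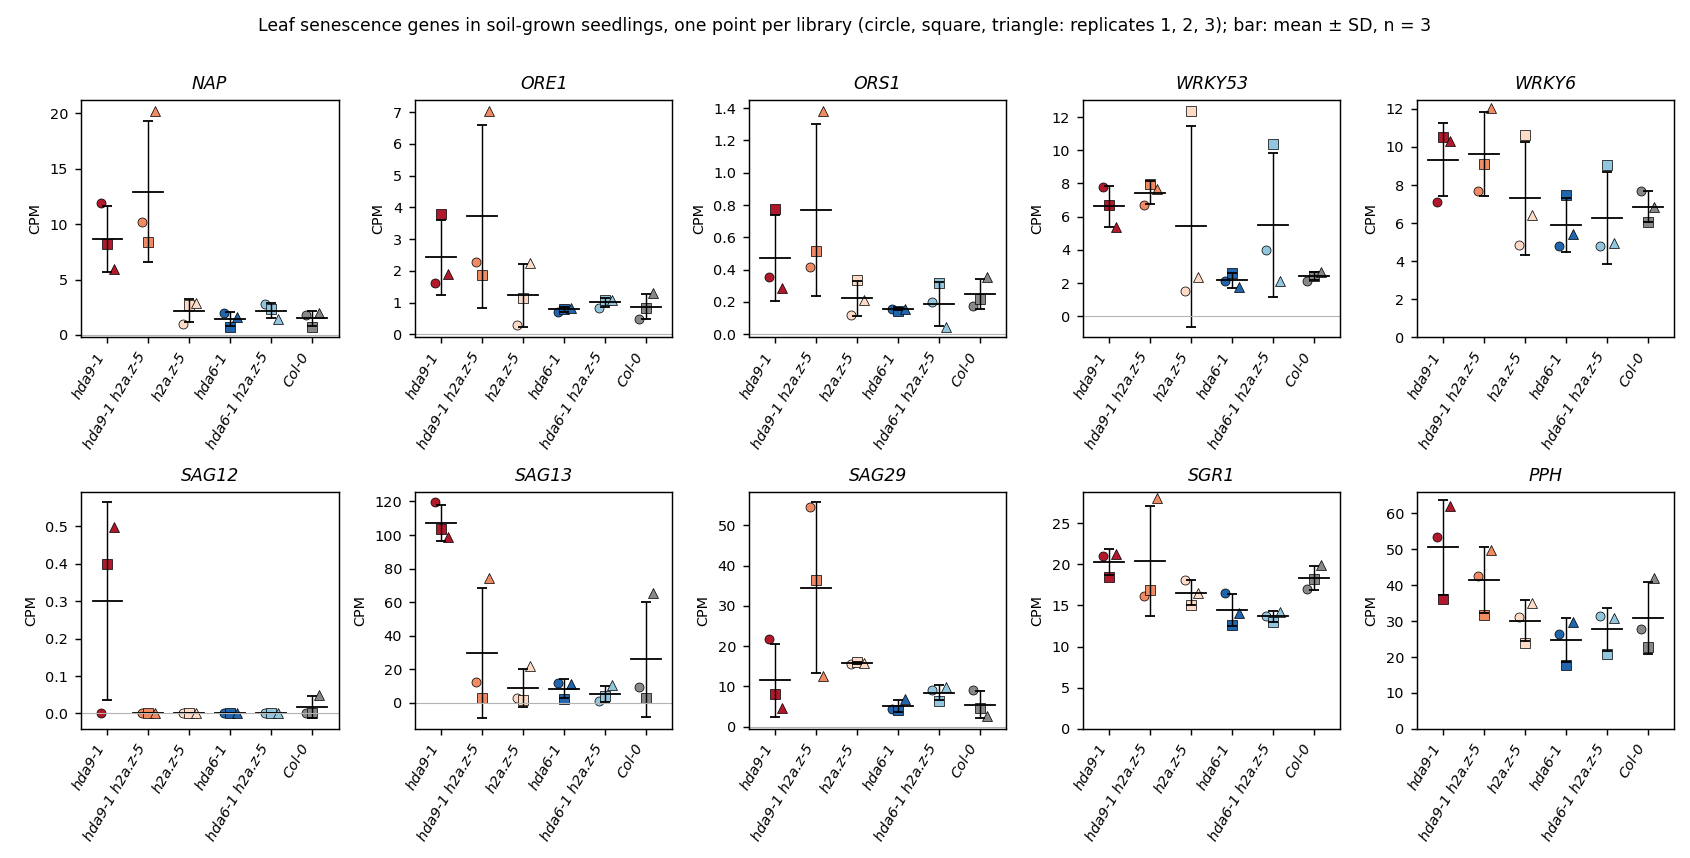
Expression in CPM of the 10 senescence genes in each soil-grown library, with the mutants to the left of Col-0 (circles, squares and triangles for replicates 1, 2 and 3; bar, mean ± SD, n = 3). NAP lies between 5.96 and 20.2 CPM in the libraries with hda9-1 and between 0.754 and 2.88 CPM in all others; the y axes differ between genes, and the libraries labelled hda6-1 are plotted by label.

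Hormone output genes were read in the same libraries. The summed level of 6 salicylic acid output genes, which include PR1, was 756, 375 and 297 CPM in hda9-1. In Col-0 it was 94.3, 80.3 and 222 CPM, and none of the 6 passed the test against Col-0. In hda9-1 h2a.z-5 this sum was 115, 60.6 and 208 CPM, which overlaps Col-0. The summed level of 6 jasmonate output genes was 946, 3327 and 3210 CPM in the hda9-1 libraries and 484, 602 and 2873 CPM in the hda9-1 h2a.z-5 libraries, against 493, 630 and 3587 CPM in Col-0. The part of these hormone outputs in the levels of SAG13, WRKY53 and the other members was not tested.

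Of 78 other genes of the senescence pathway, 3 rose and none fell in hda9-1, where 1.75% of all genes were called. They were ANAC017, a NAC factor tethered to membranes, with a log2 fold change of 0.55 ± 0.12 (adjusted p = 0.0253), RD21A, a cysteine protease, with 0.55 ± 0.12 (adjusted p = 0.0364), and NRT1.7, a transporter that carries nitrate out of old leaves, with 0.53 ± 0.12 (adjusted p = 0.0379). ANAC017 averaged 53.2 ± 2.77 CPM in hda9-1 and 36.2 ± 2.39 CPM in Col-0 (SD, n = 3 each). RD21A averaged 554 ± 60.02 CPM in hda9-1 and 378 ± 13.3 CPM in Col-0, and NRT1.7 averaged 107 ± 12.5 CPM and 74.3 ± 1.88 CPM. Of the 13 chlorophyll breakdown genes none passed, nor did any of 10 WRKY regulators or 16 hormone input genes. The HDA9 partners HOS15 and POWERDRESS (AT3G52250) and ATG9, an autophagy gene, did not pass either. Over the 78 genes 69 lay above 0, with a median log2 fold change of 0.41. With the replicate block, which called 16.3% of all genes, 28 rose and 2 fell. With DESeq2, which called 5.72% of all genes, 13 rose and 1 fell. Without a filter on low counts, or without replicate 3, none passed, where 0.751% and 0.149% of all genes did. The calls of ANAC017, RD21A and NRT1.7 were lost when any 1 of the 6 libraries was left out.

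The NAP rise was also present in the hda9-1 h2a.z-5 mutant, in which SAG29 rose as well. NAP had 10.2, 8.38 and 20.2 CPM in hda9-1 h2a.z-5, against 1.76, 0.754 and 1.97 CPM in Col-0, which is 3.10 ± 0.49 log2 units higher (edgeR adjusted p = 0.00199). The call held without each single library, with adjusted p between 0.00185 and 0.0111. SAG29 had 54.7, 36.5 and 12.5 CPM in hda9-1 h2a.z-5, against 9.19, 4.65 and 2.65 CPM in Col-0, with no overlap and a log2 fold change of 2.65 ± 0.57 (adjusted p = 0.0125). That call was lost without Col-0 replicate 2 (adjusted p = 0.055) or 3 (adjusted p = 0.0671), and when only these 2 genotypes were fitted (adjusted p = 0.106). Thus 2 of 9 members rose, where 5.89% of all genes were called, and all 9 lay above 0, with a median of 1.62, against 0.0254 over all genes tested. Without replicate 3 of hda9-1 h2a.z-5, SAG13 (-1.76) and SGR1 (-0.14) lay below 0. The authors' deposited table called 4 members, NAP, SAG29, ORE1 (adjusted p = 0.0106) and WRKY53 (1.55e-08), where 3.98% of its genes were called.

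The other regulators of this mutant lay above Col-0 without passing. ORE1 had 2.27, 1.86 and 7.04 CPM in hda9-1 h2a.z-5, against 0.495, 0.817 and 1.29 CPM in Col-0 (log2 fold change 2.1 ± 0.60, edgeR adjusted p = 0.0501). ORS1 had 0.413, 0.516 and 1.38 CPM, against 0.173, 0.220 and 0.354 CPM in Col-0 (1.63 ± 0.58, adjusted p = 0.107). WRKY53 had 6.69, 7.99 and 7.66 CPM in hda9-1 h2a.z-5, against 2.15, 2.45 and 2.65 CPM in Col-0 (1.62 ± 0.61, adjusted p = 0.13). With NAP, WRKY6 and SAG29, these made 6 members above Col-0 without overlap, where 10.6% of all genes were. The replicate block, which called 23.7% of all genes, called 6 members: NAP, SAG29, ORE1 (adjusted p = 0.00601), ORS1 (0.0401), WRKY53 (0.0261) and PPH (0.0065), and DESeq2, which called 9.33% of all genes, called ORE1 besides NAP and SAG29 (0.00905). ORE1 also passed the edgeR test without hda9-1 h2a.z-5 replicate 2 (adjusted p = 0.0288) and without a filter on low counts (0.0476), and WRKY53 passed with only these 2 genotypes fitted (0.0241). In replicate 3 of hda9-1 h2a.z-5, NAP, ORE1, ORS1, WRKY6, SAG13, SGR1 and PPH all had their highest value of the 3 libraries, and without replicate 3 of every genotype no member passed (adjusted p = 0.0795 for NAP and 0.0565 for SAG29).

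SAG13 lay lower in hda9-1 h2a.z-5 than in hda9-1. It had 12.4, 2.81 and 74.3 CPM in hda9-1 h2a.z-5, against 119, 103 and 99.1 CPM in hda9-1, so that every hda9-1 h2a.z-5 library was below every hda9-1 library, as in 6.31% of all genes. The log2 fold change of -1.84 had a 95% interval of -4.36 to 0.67 and did not pass (edgeR adjusted p = 0.625), and it was -3.11 with the replicate block (adjusted p = 0.0356). SAG29 was higher in hda9-1 h2a.z-5 than in hda9-1 by 1.59 log2 units (95% interval 0.45 to 2.74, adjusted p = 0.238), and by 1.64 with the block (adjusted p = 0.049), which called 4.19% of all genes. No member was called in this comparison by the unblocked test, where 0.944% of all genes were; 1 had an unadjusted p under 0.05 and DESeq2 called none. Against h2a.z-5, SAG29 did not pass in hda9-1 h2a.z-5, with overlapping groups (1.12 ± 0.53 log2 units, edgeR adjusted p = 0.375). NAP was higher there by 2.57 ± 0.47 log2 units (adjusted p = 0.0212), the only member called, where 0.64% of genes were. That call was lost without any one h2a.z-5 library (adjusted p = 0.06 to 0.0985), without hda9-1 h2a.z-5 replicate 3 (0.0824) and with only these 2 genotypes fitted (0.243), and the block, which called 7.56% of all genes, called ORE1 (0.0346) and PPH (0.015) too.

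In hda9-1 h2a.z-5, 5 of the 78 other pathway genes rose and none fell, where 5.89% of all genes were called. GLN1;4, a cytosolic glutamine synthetase, had the largest log2 fold change at 1.00 ± 0.18 (edgeR adjusted p = 0.00439), with 11.1 ± 0.301 CPM in hda9-1 h2a.z-5 and 5.55 ± 1.19 CPM in Col-0 (SD, n = 3 each). EEL, a bZIP factor of abscisic acid responses, rose by 0.96 ± 0.21 (adjusted p = 0.0156). ANAC017 (0.47, adjusted p = 0.0254), NRT1.7 (0.45, adjusted p = 0.0397) and RD21A (0.45, adjusted p = 0.0449) were called here as in hda9-1, and the 2 comparisons share the Col-0 libraries. With the replicate block, which called 23.7% of all genes, 20 of the 78 rose and 4 fell. DESeq2, which called 9.33% of all genes, called 12 of them. With only these 2 genotypes fitted none passed, where 0.419% of all genes did.

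In the mutants without hda9-1, no member was called against Col-0. In h2a.z-5, NAP had 0.992, 2.69 and 2.88 CPM, against 1.76, 0.754 and 1.97 CPM in Col-0, and SAG13 had 3.05, 1.68 and 21.8 CPM, against 9.53, 2.89 and 65.5 CPM. SAG29 was the one member above Col-0 without overlap there, as 7.8% of all genes were, with 15.7, 16.1 and 15.9 CPM in h2a.z-5, against 9.19, 4.65 and 2.65 CPM in Col-0. Its log2 fold change of 1.53 ± 0.55 did not pass (edgeR adjusted p = 0.313), while the authors' deposited table gives 1.53 with an adjusted p of 0.00495 and calls 1.61% of its genes. The count of 0 called members, where 0.91% of all genes were called, stood beside 1 with an unadjusted p under 0.05 and 0 by DESeq2. WRKY53 was high in 1 h2a.z-5 library, with 1.54, 12.4 and 2.35 CPM, and EEL was the only other pathway gene called (1.03 ± 0.21, adjusted p = 0.0263), a call lost with only these 2 genotypes fitted and without Col-0 replicate 1 or 2 or h2a.z-5 replicate 2 or 3.

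In the libraries labelled hda6-1 none of the 9 members was called against Col-0, where 3.05% of all genes were. Their median log2 fold change was -0.22 and all 9 lay below 0, but the signs did not hold throughout: without replicate 3 of every genotype NAP (0.13), ORE1 (0.21), SAG13 (0.18) and WRKY53 (0.05) lay above 0, as did SAG29 with the replicate block (0.09). NAP had 2.00, 0.763 and 1.60 CPM in the libraries labelled hda6-1, against 1.76, 0.754 and 1.97 CPM in Col-0, with a 95% interval of -1.08 to 0.99 for the log2 fold change. SGR1 had 16.5, 12.7 and 14.1 CPM, against 17.0, 18.2 and 19.9 CPM in Col-0 (-0.35 ± 0.18, edgeR adjusted p = 0.59), and ORS1 had 0.158, 0.147 and 0.157 CPM, against 0.173, 0.220 and 0.354 CPM in Col-0. These 2 of 9 lay below Col-0 without overlap, as did 6.69% of all genes. Neither an unadjusted p under 0.05 nor a DESeq2 call was found among the members there. In those labelled hda6-1 h2a.z-5, where 6.01% of genes were called, NAP had 2.76, 2.30 and 1.43 CPM, and SGR1 had 13.7, 13.02 and 14.2 CPM, below every Col-0 library, as were 10.1% of all genes (-0.43 ± 0.18, adjusted p = 0.219). It was the 1 member with an unadjusted p under 0.05, and DESeq2 called 0. GLN1;4 (0.95, adjusted p = 0.00304) and EEL (1.55, adjusted p = 0.000203) rose among the other pathway genes. Against the libraries labelled hda6-1 and against h2a.z-5, those labelled hda6-1 h2a.z-5 showed no called member, where 2.26% and 2.02% of genes were called; 1 and 0 members had an unadjusted p under 0.05, and DESeq2 called 0 in both.

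Set directly against the libraries labelled hda6-1, hda9-1 was higher for NAP and PPH. NAP had 11.9, 8.20 and 5.96 CPM in hda9-1, against 2.00, 0.763 and 1.60 CPM in the libraries labelled hda6-1 (2.57 ± 0.48 log2 units, edgeR adjusted p = 0.00223), a call held without each single library. PPH had 53.3, 36.2 and 62.1 CPM in hda9-1, against 26.3, 17.8 and 29.7 CPM (1.04 ± 0.27, adjusted p = 0.0223), and that call was lost without hda6-1 replicate 1 (0.057) or 2 (0.125) and without hda9-1 replicate 1 (0.0661) or 3 (0.105). These 2 of 9 compare with 10.7% of all genes called. Of the members, 7 lay above without overlap, where 15.3% of all genes did. The replicate block called 6 of these 7 (not ORS1, adjusted p = 0.0682) and also WRKY6 (0.0426), where it called 29.5% of all genes. SAG13 had 119, 103 and 99.1 CPM in hda9-1, against 11.9, 2.11 and 11.6 CPM in the libraries labelled hda6-1, with 3.65 ± 1.28 on the log2 scale (adjusted p = 0.081; 0.00165 with the block and 0.0244 with DESeq2).

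Of the 78 other pathway genes, 14 were higher and 2 lower in hda9-1 than in the libraries labelled hda6-1. Of all genes, 10.7% were called in this comparison. Of 14 NAC regulators 4 were higher: ANAC017 (0.60, edgeR adjusted p = 0.00264), ATAF2 (1.19, adjusted p = 0.0103), JUB1 (2.85, adjusted p = 0.0111), which is known to delay senescence, and ANAC055 (2.83, adjusted p = 0.0448). Of 10 WRKY regulators 3 were higher: WRKY30 (2.075, edgeR adjusted p = 0.00608), WRKY25 (0.79, adjusted p = 0.0347) and WRKY70 (1.52, adjusted p = 0.043). WRKY70, a salicylic acid response factor, averaged 104 CPM in hda9-1 and 36.2 CPM in the libraries labelled hda6-1. The autophagy gene ATG9 was higher by 0.92 ± 0.20 (adjusted p = 0.00669), and POWERDRESS (AT3G52250) by 0.97 ± 0.30 (adjusted p = 0.048). Of 22 other senescence-associated and remobilisation genes 4 were higher. They were RNS2 (0.64, edgeR adjusted p = 0.00222), RD21A (0.44, adjusted p = 0.0324), NRT1.7 (0.41, adjusted p = 0.0412) and SAG14 (1.72, adjusted p = 0.0484). Among the chlorophyll breakdown genes PAO, which opens the chlorophyll ring, was higher (0.49, adjusted p = 0.0139), and NOL, a chlorophyll b reductase (-0.55, adjusted p = 0.00941), and MES16 (-0.999, adjusted p = 0.0353) were lower. The replicate block called 46 of the 78, where it called 29.5% of all genes.

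Whether the loss of H2A.Z changed the response to the hda9-1 mutation was tested by the interaction, and no member passed. For NAP the interaction was between -1.35 and 1.44 log2 units (95% interval, edgeR adjusted p = 1), and for SAG29 between -1.54 and 1.67. For SAG13 it was between -3.76 and 3.19, so that large differences are not bounded there. No member passed in the interaction of h2a.z-5 with the libraries labelled hda6-1 either. Of all genes, 0.0337% and 0.053% were called in these tests; none of the members had an unadjusted p under 0.05, and DESeq2 and the block called none.

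**Figure D2:**
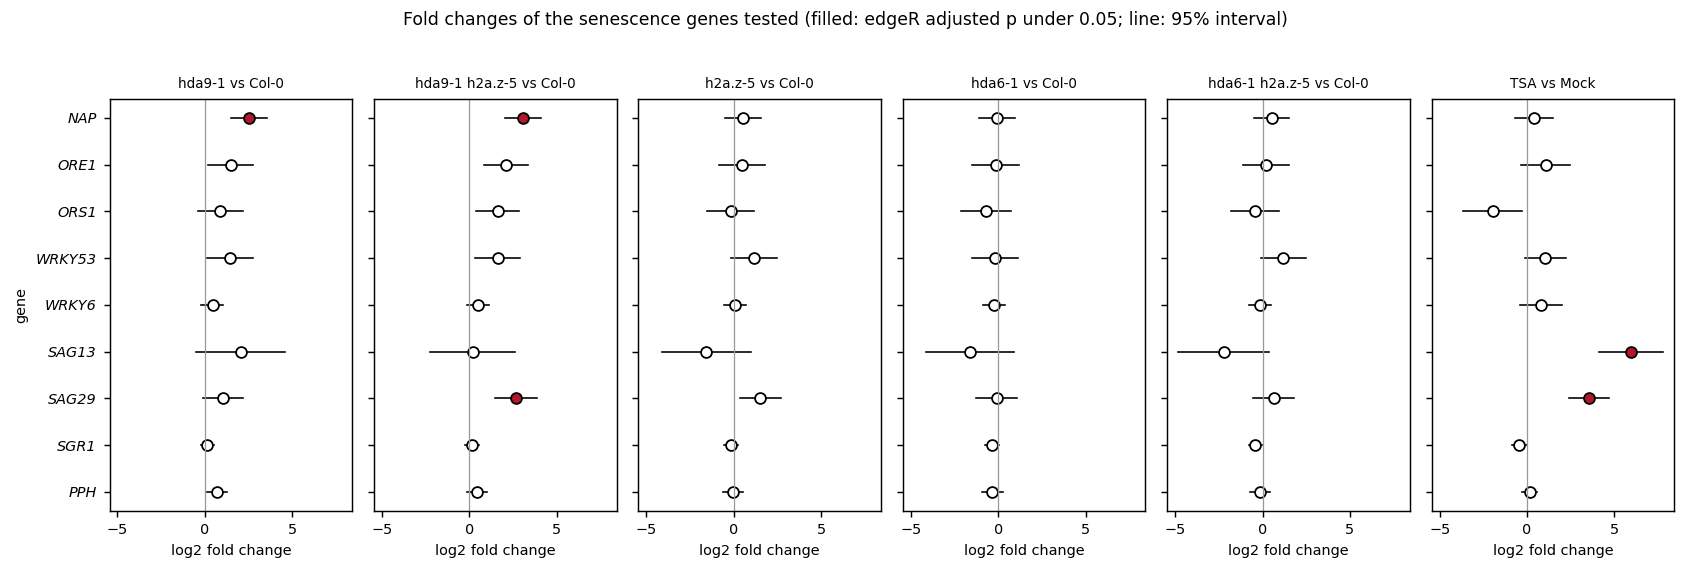
Log2 fold changes of the 9 senescence genes tested in each comparison (points, edgeR estimates; filled, adjusted p under 0.05; lines, 95% intervals; x axis, log2 units, mutant or TSA over Col-0 or Mock). The filled points are NAP in hda9-1 (2.52) and hda9-1 h2a.z-5 (3.10), SAG29 in hda9-1 h2a.z-5 (2.65) and TSA (3.53), and SAG13 in TSA (5.96); the panels of the 5 genotypes share the Col-0 libraries.

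Under TSA, SAG13 and SAG29 rose and NAP was not called. SAG13 had 1527, 1794, 882, 467 and 65.5 CPM in TSA, against 9.83, 28.7, 15.7, 15.2 and 6.55 CPM in Mock, and every TSA library was above every Mock library. Its log2 fold change was 5.96 ± 0.84 (edgeR adjusted p = 0.000489, n = 5 each). SAG29 had 30.8, 44.0, 46.3, 60.3 and 19.3 CPM in TSA, against 2.24, 4.79, 6.33, 3.20 and 0.802 CPM in Mock, again without overlap (3.53 ± 0.52, adjusted p = 0.000598). Both calls held without each single library, with log2 fold changes of 5.61 to 6.32 and 3.27 to 3.86. These 2 of 9 members compare with 35.2% of all genes called, and with 13.3% above Mock without overlap, so the share called was no higher than the background.

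The late marker SAG12 was detected in 4 of 5 TSA libraries, with 0, 0.0317, 0.235, 0.0913 and 1.81 CPM and 87 reads in all, and in none of the Mock libraries. Against the level of 3 reads over the Mock group, 0.0161 CPM, it was at least 27-fold higher in TSA. Of the 87 reads 74 were in replicate 5, and without it the TSA mean was 0.0894 CPM, at least 5.55-fold above the same level. SAG12 did not reach the filter of the edgeR test.

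No regulator was called under TSA when all libraries were fitted without a block, and the calls of ORE1, ORS1, WRKY53 and WRKY6 changed with replicate 5 and with the block. ORE1 had 27.3, 26.5, 22.8, 19.7 and 65.2 CPM in TSA, against 9.74, 9.60, 6.31, 3.79 and 47.5 CPM in Mock, and was higher in TSA within each of the 5 replicate numbers. Its log2 fold change was 1.07 ± 0.64 (edgeR adjusted p = 0.213), and 1.71 without replicate 5 of both groups (adjusted p = 0.000118). ORS1 went the other way, with 0.713, 0.856, 0.626, 1.25 and 5.56 CPM in TSA, against 5.46, 4.76, 2.47, 2.73 and 19.96 CPM in Mock, lower in TSA within all 5 numbers. It had a log2 fold change of -1.97 ± 0.77 (adjusted p = 0.0665), and -2.16 without replicate 5 (adjusted p = 0.000126). DESeq2 called ORS1 with all libraries (adjusted p = 0.0156). ORE1 and ORS1, sister genes, thus correlated at r = 0.81 over the 18 soil-grown libraries and at 0.086 over the 10 TSA and Mock libraries, a description over libraries that share groups and replicate numbers.

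WRKY53 had 4.10, 5.74, 4.25, 5.15 and 7.55 CPM in TSA, against 1.77, 1.29, 1.31, 1.00 and 7.52 CPM in Mock. WRKY6 had 31.9, 38.1, 48.6, 44.9 and 56.6 CPM in TSA, against 10.3, 14.4, 13.04, 10.9 and 77.5 CPM in Mock. For both genes the TSA libraries lay above the Mock libraries of replicates 1 to 4, and Mock replicate 5 was as high as or above TSA. The log2 fold changes were 1.05 ± 0.54 (edgeR adjusted p = 0.149) and 0.80 ± 0.55 (adjusted p = 0.277), and 1.84 (adjusted p = 4.21e-05) and 1.75 (adjusted p = 6.07e-06) without replicate 5. AT4G23800, which overlaps WRKY53, rose by 1.06 in TSA (adjusted p = 0.0293). NAP had 12.2, 12.7, 15.1, 9.92 and 37.8 CPM in TSA, against 8.74, 21.8, 7.78, 4.403 and 23.6 CPM in Mock, overlapping (0.40 ± 0.51, adjusted p = 0.56), and its log2 fold change was 0.22 without replicate 5 (adjusted p = 0.626).

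The chlorophyll breakdown members showed no call under TSA. SGR1 had 15.6, 20.5, 26.0, 17.4 and 23.3 CPM in TSA, against 35.3, 24.6, 25.1, 24.4 and 30.2 CPM in Mock, lower in TSA in 4 of 5 numbers (-0.44 ± 0.19, edgeR adjusted p = 0.0914). PPH had 90.6, 100.3, 71.8, 71.3 and 90.8 CPM in TSA, against 71.0, 71.5, 66.2, 62.4 and 113 CPM in Mock (0.14 ± 0.20, adjusted p = 0.609). With the replicate block, or without replicate 5, 6 members passed: ORE1, WRKY53, WRKY6, SAG13 and SAG29 higher and ORS1 lower in TSA. Of all genes, 44.8% were called with the block and 54.4% without replicate 5. Leaving out Mock replicate 5 alone called ORE1 (adjusted p = 0.00141), WRKY53 (0.000197) and WRKY6 (5.38e-05), and leaving out TSA replicate 5 alone called ORS1 (0.00472). In the block the adjusted p was 0.00293 for ORE1, 0.00132 for ORS1, 0.0124 for WRKY53 and 0.0166 for WRKY6. The authors' deposited table called SAG13 (5.97), SAG29 (3.54) and ORS1 (-1.98), where 41.6% of its genes were called.

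**Figure D3:**
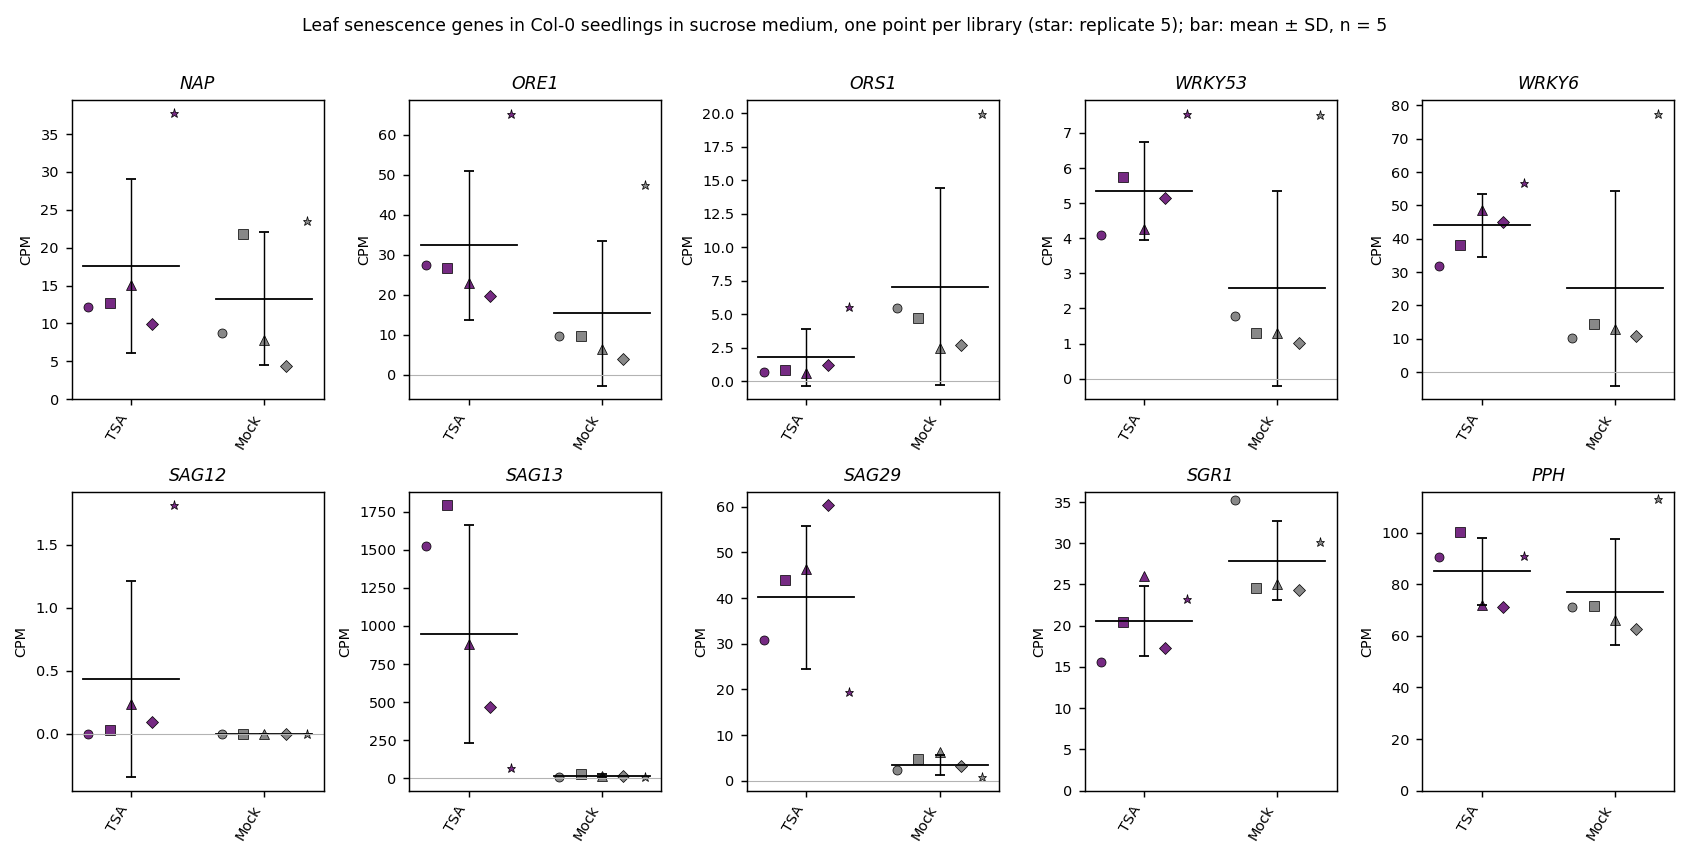
Expression in CPM of the 10 senescence genes in the TSA libraries (left) and the Mock libraries (right), 1 point per library with replicate 5 as a star, and the mean ± SD as a bar (n = 5). SAG13 and SAG29 separate the groups fully, with 65.5 to 1794 and 19.3 to 60.3 CPM in TSA, whereas Mock replicate 5 is the highest Mock library for NAP, ORE1, ORS1, WRKY53, WRKY6 and PPH.

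Of the 78 other pathway genes, 15 rose and 6 fell under TSA, a smaller share than the 35.2% of all genes called. The nuclease gene BFN1, a senescence marker, rose by 3.19 ± 0.38 log2 units (edgeR adjusted p = 0.000213), with 13.9 CPM in TSA on average and 1.51 CPM in Mock. SAG113, a phosphatase gene of abscisic acid signalling in old leaves, rose by 2.86 ± 0.37 (adjusted p = 0.000302), with 99.6 CPM in TSA and 13.7 CPM in Mock. GLN1;1, a glutamine synthetase, rose by 2.36 ± 0.36 (adjusted p = 0.000712). Of 22 genes of this remobilisation list 6 rose and 1 fell, again not above that background.

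Of 14 NAC regulators 4 rose under TSA, JUB1 by 2.38 (edgeR adjusted p = 0.000623), ANAC087 by 2.68 (adjusted p = 0.000659), ANAC016 by 2.50 (adjusted p = 0.00298) and ANAC046 by 1.13 (adjusted p = 0.0126). ANAC016 and ANAC046 are known to promote senescence. WRKY57 (1.17, adjusted p = 0.0329) and WRKY42 (1.14, adjusted p = 0.0337) rose among 10 WRKY genes. Of 13 chlorophyll breakdown genes, CYP89A9 (1.00, adjusted p = 0.0127) and CLH1, a chlorophyllase (1.72, adjusted p = 0.0135), rose. CLH2 (-1.16, adjusted p = 0.0254) and SGRL, AT1G44000 (-1.84, adjusted p = 0.0373), fell. Among hormone inputs ABI5, an abscisic acid response factor, rose by 3.00 ± 0.37 (adjusted p = 0.000264), while PIF5, a light-signal factor that promotes dark-induced senescence, fell (-1.21, adjusted p = 0.00356), as did the abscisic acid receptor PYL9 (-1.58, adjusted p = 0.0108). POWERDRESS (AT3G52250) fell by 0.59 (adjusted p = 0.0302). The median of all 78 was 0.14, against -0.0654 over all genes tested. Without replicate 5, 31 rose and 12 fell, where 54.4% of all genes were called.

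**Figure D4:**
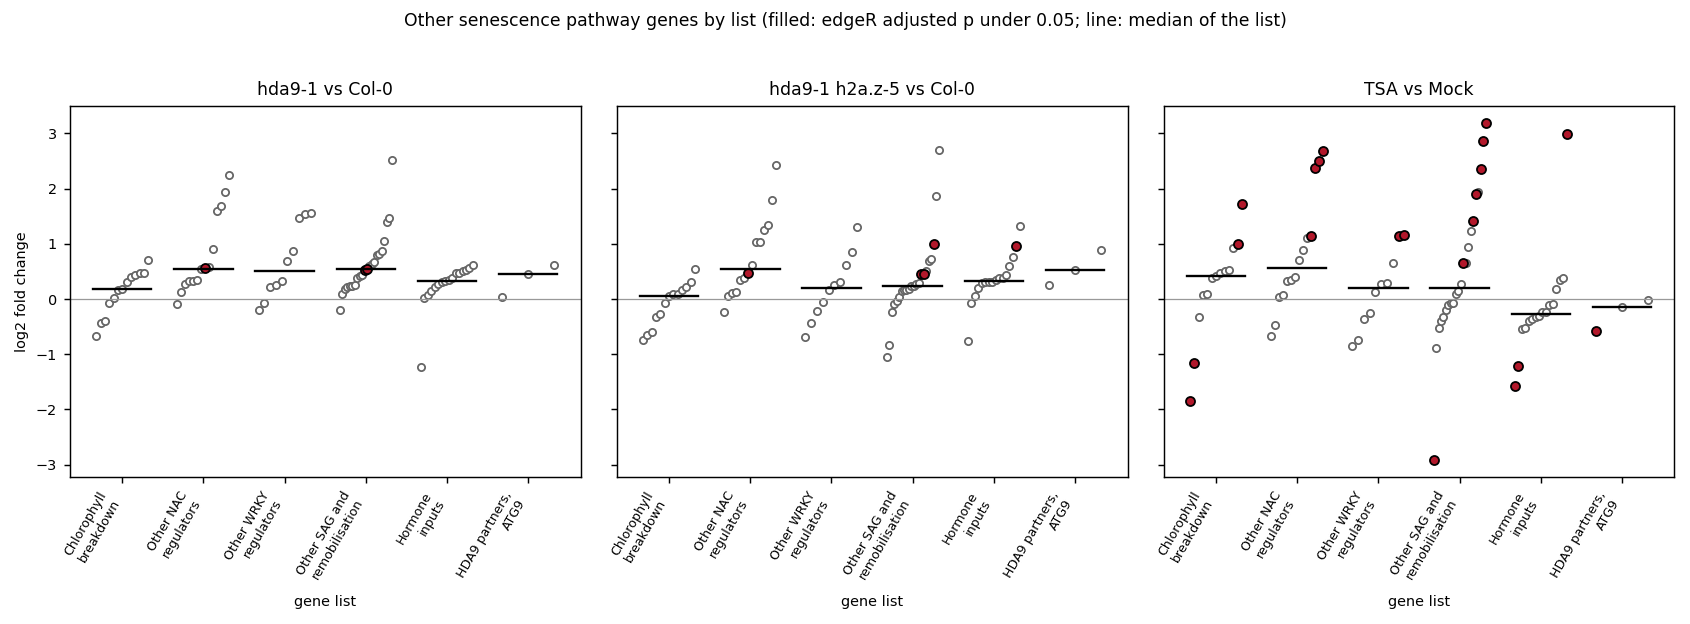
Log2 fold changes of 78 other senescence pathway genes by list in hda9-1 and hda9-1 h2a.z-5 over Col-0 and in TSA over Mock (1 point per gene; filled, edgeR adjusted p under 0.05; line, median of the list). In the left panels 3 and 5 genes are filled, between 0.45 and 1.00 log2 units, and under TSA 15 filled genes lie above 0 and 6 below.

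Of the salicylic acid output genes 4 of 5 tested rose under TSA, of the jasmonate output genes 2 of 6 rose, and of the clock genes 1 of 8 rose and 2 fell, where 35.2% of all genes were called. The 6 salicylic acid output genes summed to 229, 480, 190, 196 and 97.1 CPM in TSA, against 40.8, 90.0, 75.9, 56.6 and 76.3 CPM in Mock, and the 6 jasmonate output genes to between 1384 and 2993 CPM in TSA, against 209 to 2022 CPM in Mock. All 7 leaf markers and all 6 root markers were detected in both groups. The leaf markers summed to 23940 to 73960 CPM in TSA and 14140 to 50500 CPM in Mock. In replicate 5, the library with the lowest leaf marker and clock sums of each group, the NAC and WRKY members had their highest levels and SAG13 and SAG29 their lowest. The part of these differences in the member values was not tested.

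The genes next to the members on the chromosome were read as well. Of 20 adjacent coding genes, 17 were tested under TSA, where 6 rose and 2 fell, beside 35.2% called over all genes. Beside SAG13, AT2G29340 rose by 1.09 (edgeR adjusted p = 0.00845) and AT2G29360 fell by 2.42 (adjusted p = 7.77e-05) under TSA, whereas SAG13 rose by 5.96. How the authors assigned reads shared between similar genes is not given. Both neighbours of SAG29, PBS1 and NAC083, were not called under TSA (log2 fold changes -0.20 and 0.065). Both neighbours of SAG12 rose under TSA, AT5G45880 by 8.2 (edgeR adjusted p = 0.000272) and APG7 by 0.96 (adjusted p = 0.00605). AT1G62290 beside WRKY6 rose by 5.09 (adjusted p = 1.29e-05). AT4G23800 beside WRKY53 (1.06) and PYR4 beside SGR1 (0.90, adjusted p = 0.0199) also rose, and AT5G13810 beside PPH fell (-0.74, adjusted p = 0.0068). In hda9-1, where 1.75% of all genes were called, 16 neighbours were tested and 2 rose, PBS1 (0.64, adjusted p = 0.0465) and AT5G13810 beside PPH (0.60, adjusted p = 0.0168). These neighbours were named after their values were seen.

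Over the 18 soil-grown libraries, the pattern of NAP was most like those of AT5G38990 and AT5G63370 (Pearson r of log2 CPM 0.908 for both) and TPS8 (0.903), a gene of the trehalose phosphate synthase family. SAG29 was most like CYP38 (0.878), AT1G63610 (0.876) and BAS1 (0.854), an enzyme gene that inactivates brassinosteroids. PPH was most like SULTR4;1 (0.964), a vacuolar sulphate transporter gene, LRR XI-23 (0.954) and PA200 (0.953), a proteasome activator gene. Among the members, NAP and ORE1 correlated at 0.824 on soil and at 0.812 in medium, and SAG13 and SAG29 at -0.0951 on soil and at 0.921 in medium. These coefficients describe libraries that share groups and replicate numbers.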

How the data were processed

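Per the labels' protocols, RNA was sequenced from 12-day seedlings; the authors deposited raw read counts per gene, 1 table for 18 genotype libraries and 1 for 10 TSA and Mock libraries. For RNA, the sources used here give no aligner, counter or strand setting; the submitters' processing notes name the TAIR10 build. The authors also deposited tables for each comparison with log2 fold changes and their adjusted p-values, read here as a side check. The design text names nrp1-1 nrp2-2 where the labels name h2a.z-5; the labels were followed.

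Counts were tested with the quasi-likelihood F test of edgeR 4.0.16 in R 4.3.3, two-sided, with TMM scaling, after filterByExpr (minimum count 10, minimum total 15), which left 20771 and 20201 genes. All 18 genotype libraries were fitted together (12 residual degrees of freedom) and the 10 others together (8). Calls rest on an adjusted p under 0.05 (Benjamini-Hochberg, over all genes tested within a contrast), in 13 contrasts. CPM uses TMM-scaled library sizes, and intervals are 95% from the fit.

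The members and the lists of other pathway genes were chosen with earlier results of these data known, so no list was tested as a set. Named were all members, up to 4 called genes per pathway list and contrast with the smallest p, the targeted genes, and the 3 genes most correlated with each of NAP, SAG29 and PPH, the members called in genotype contrasts. All 36632 locus identifiers matched TAIR10.1, from which gene lengths and promoter windows were read; the count files hold no coordinates.

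Replicates are independent biological ones, per the series text. After removal of group means, all 45 genotype pairs and all 5 TSA and Mock pairs with the same replicate number correlated, at 0.142 to 0.647 and 0.101 to 0.497, against medians of -0.24 and 0.0326 for different numbers, so blocked values are given where they change a call. Alternatives were DESeq2 1.42.0, its size factors, no filter, the replicate block, single libraries left out and only the groups compared; leaving out replicate 3 of all genotypes was added after seeing the data. Reads carry no molecular identifiers, so the floor of 3 counts covers counting error only. Precision rests on 30257874 to 40395659 counts per library.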

Additional observations from a re-analysis of the deposited data

Results flagged for a closer look

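The values of the 10 genes in TSA and in Mock made 20 groups of 5 libraries. In 9 of them 1 library lay far from the other 4, and all 9 were replicate 5. SAG12 in Mock, with 0 throughout, could not be marked. Chance alone marks about 1 in 20 such groups, but the genes share the same libraries, so the 9 are not independent. In the TSA library of replicate 5, NAP had 37.8 CPM, against 9.92 to 15.1 CPM in the other TSA libraries. ORE1 had 65.2 CPM in that library, against 19.7 to 27.3 CPM, and ORS1 had 5.56 CPM, against 0.626 to 1.25 CPM. SAG12 had 1.81 CPM there, against 0 to 0.235 CPM. In the Mock library of replicate 5, ORE1 had 47.5 CPM, against 3.79 to 9.74 CPM in the other Mock libraries, and ORS1 had 19.96 CPM, against 2.47 to 5.46 CPM. WRKY53 had 7.52 CPM in that library, against 1.00 to 1.77 CPM, WRKY6 had 77.46 CPM, against 10.3 to 14.4 CPM, and PPH had 113 CPM, against 62.4 to 71.5 CPM.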

How the results depend on the processing

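Over 1533 member values under alternatives, 1339 kept their direction and call, 21 lost a call, 38 gained one, 135 uncalled values changed sign and no called value reversed. Most of the 1533 values belong to comparisons uncalled in the main fit, which had no call to lose. All 21 losses fell on the genotype calls of NAP, SAG29 and PPH, and none on the TSA calls of SAG13 and SAG29. With replicate number as a block, called members numbered 4 in hda9-1, 6 in hda9-1 h2a.z-5, 7 in hda9-1 against the libraries labelled hda6-1, 2 and 3 in hda9-1 h2a.z-5 against hda9-1 and h2a.z-5, and 6 under TSA, and called genes of the 78 other pathway genes numbered 30, 24, 46, 4, 19 and 32 in the same order, 4 in h2a.z-5, 11 in libraries labelled hda6-1 h2a.z-5 and 1 in these against h2a.z-5. The block changed no other member's call. With DESeq2, which called 37.8% of all genes under TSA, 4 members were called there. SAG12 was among them, with no read in Mock and 74 of its 87 TSA reads in replicate 5. Pathway calls with DESeq2 numbered 14 in hda9-1, 12 in hda9-1 h2a.z-5, 2 in h2a.z-5 and 5 in libraries labelled hda6-1 h2a.z-5. Of all genes, DESeq2 called 5.72%, 9.33%, 1.63% and 7.4% in the same order. Pathway calls numbered 1 and 9 in hda9-1 h2a.z-5 against hda9-1 and h2a.z-5, where 1.91% and 2.55% of all genes were called. With only the compared groups fitted, 2 members were called in hda9-1, where 0.272% of all genes were. In hda9-1 against the libraries labelled hda6-1 they numbered 5, where 9.98% of all genes were called. In hda9-1 h2a.z-5 against h2a.z-5 they numbered 0, where 0.0255% of all genes were called. Pathway calls in these fits numbered 1 in hda9-1, 0 in hda9-1 h2a.z-5 (0.419% of all genes) and 0 in h2a.z-5 (0.313%). Without a filter, pathway calls numbered 0 in hda9-1 and 2 in hda9-1 h2a.z-5, where 0.751% and 3.32% of all genes were called.

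Without single libraries, members called ranged from 0 to 1 in hda9-1, 1 to 3 in hda9-1 h2a.z-5, 0 to 1 in hda9-1 h2a.z-5 against h2a.z-5, 1 to 2 in hda9-1 against the libraries labelled hda6-1 and 2 to 5 under TSA, and were 0 to 0 in the other comparisons. Calls over all genes then ranged from 33 to 138 in hda9-1 h2a.z-5 against h2a.z-5. They ranged from 1452 to 1800 in hda9-1 against the libraries labelled hda6-1 and from 5604 to 8896 under TSA. Pathway calls ranged from 0 to 1 in hda9-1, 2 to 10 in hda9-1 h2a.z-5, 0 to 1 in h2a.z-5, 0 to 1 and 0 to 4 in hda9-1 h2a.z-5 against hda9-1 and h2a.z-5, 1 to 2 in libraries labelled hda6-1 h2a.z-5 against those labelled hda6-1, 7 to 10 in hda9-1 against the libraries labelled hda6-1 and 14 to 36 under TSA; they were 2 to 2 in libraries labelled hda6-1 h2a.z-5 and 0 to 0 elsewhere. Without replicate 3, members numbered 0 in hda9-1, 0 in hda9-1 h2a.z-5 and 0 in hda9-1 h2a.z-5 against h2a.z-5. In hda9-1 against the libraries labelled hda6-1 they numbered 1 and pathway calls 6, where 5.35% of all genes were called. Without replicate 5, 6 members and 43 pathway genes were called under TSA, where 54.4% of all genes were. Over all genes, hda9-1 calls numbered 363, 3393 with the block, 1187 with DESeq2, 213 without a filter, 53 with only the groups compared, 31 without replicate 3 and 53 to 257 without single libraries; those of hda9-1 h2a.z-5 numbered 1224, 4922, 2039, 941, 82, 73 and 419 to 1286; the cause was not tested. ORS1 and SAG12 were read at under 1 CPM in most soil-grown libraries, where depth limits the test.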
